A study of Mus musculus with 4 samples.

Results

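The NCoR-HDAC3 corepressor is a protein assembly built around the deacetylase HDAC3, and its subunit genes were followed here in mouse liver with and without *Hdac3*. The members were 6 genes chosen by name as subunits, *Hdac3*, *Ncor1*, *Tbl1x*, *Tbl1xr1*, *Gps2* and *Coro2a*, out of 20642 gene symbols in the table. The rule took genes by name, and each had 1 row, so no measured value chose between rows. The members were chosen with earlier results of these data known. The measurement was PRO-seq (precision nuclear run-on sequencing), which labels and sequences the RNA being made by engaged RNA polymerase in isolated nuclei. There were 2 libraries per genotype, WT1 and WT2 from *Alb-Cre*+ *Hdac3*+/+ mice and KO1 and KO2 from *Alb-Cre*+ mice with *Hdac3* fl/- or fl/fl, all C57BL/6 at day 14. Each library was made from 20000000 liver nuclei pooled from several mice. *Alb-Cre* is a Cre recombinase driven by the albumin promoter, so both genotypes carried Cre and the deletion was directed to hepatocytes. The other liver cells were not targeted by Cre, although in the fl/- mice every cell carried a null allele.

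As background, HDAC3 removes acetyl groups from histones and has little activity alone. NCoR (encoded by *Ncor1*) is a large scaffold that binds unliganded nuclear receptors and, through a separate domain, holds and activates HDAC3. TBL1 (*Tbl1x*) and its close relative TBLR1 (*Tbl1xr1*) are WD40 proteins that contact histone tails and take part in the exchange of corepressors for coactivators, GPS2 joins them on the scaffold, and coronin 2A (*Coro2a*) is an actin-binding protein found in NCoR complexes. In liver the complex is known for repressing lipid synthesis genes together with REV-ERB receptors.

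All 6 subunit genes were transcribed in all 4 libraries and lie on 5 chromosomes (*Hdac3* on 18, *Ncor1* and *Gps2* on 11, *Tbl1x* on X, *Tbl1xr1* on 3 and *Coro2a* on 4). All were among the 12705 genes called active (some promoter-proximal reads, and on average more than 4 normalized reads per kb across the gene body). The gene body value counts reads from 1 kb past the transcription start site (TSS) to the end of the transcript. The promoter-proximal value counts reads in the densest 50 bp stretch within 500 bp of the TSS. Normalized reads are reads multiplied by 1 factor per library. The libraries held 16628518 to 26190040 reads on genes, with KO2 the shallowest, and the promoter-proximal share of those reads was 10.3% and 9.38% in WT1 and WT2 against 13.6% and 17.0% in KO1 and KO2. Across the active genes the median log2 fold change of KO over WT was -0.09 for gene bodies and 0.56 for promoter-proximal regions, so the promoter-proximal changes of the subunits are also given relative to 0.56. When the scaling factors were recomputed within the promoter-proximal region by median-of-ratios, this median was close to 0, which follows from how such factors are made. The calls over all genes then went from 3282 up and 280 down to 634 up and 942 down. Which scaling is right for these libraries was not tested.

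In gene body density, which is comparable between genes because it is per length, the order of the means over the 4 libraries was *Gps2*, *Ncor1*, *Tbl1xr1*, *Hdac3*, *Tbl1x* and *Coro2a*. *Gps2* stood at 61.9 ± 6.03 normalized reads per kb (SD, n = 4 libraries) and *Ncor1* at 55.4 ± 3.00. *Tbl1xr1* followed at 50.7 ± 6.04, *Hdac3* at 36.8 ± 2.23, *Tbl1x* at 32.8 ± 4.48 and *Coro2a* at 24.9 ± 5.15. Neighbours in this order overlapped in their ranges over libraries, with the exception of *Tbl1xr1* and *Hdac3*, where every library had *Tbl1xr1* higher, by 1.11 to 1.62 times. Within each library *Gps2* was also above *Ncor1*, by 1.03 to 1.25 times, and *Tbl1x* above *Coro2a*, by 1.24 to 1.63 times. The median over all active genes was 37.1 per kb, so the subunits lay on both sides of the middle of the active genes, from the 34.3 percentile for *Coro2a* to the 72.1 percentile for *Gps2*. The order was the same in both WT libraries, whereas in both KO libraries *Tbl1xr1* was above *Ncor1* and *Tbl1x* was above *Hdac3*.

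The promoter-proximal window gave a different order. *Coro2a* was highest at 5937 ± 2525 normalized reads per kb of window (SD, n = 4), then *Gps2* at 4909 ± 1425, *Hdac3* at 2806 ± 962, *Tbl1xr1* at 1048 ± 255, *Tbl1x* at 703 ± 348 and *Ncor1* at 253 ± 72.2. The first and second places rest on the KO libraries, since the WT means were 3802 for *Coro2a* and 3825 for *Gps2*, and *Gps2* was the higher in WT1. The pausing index, the promoter-proximal density divided by the gene body density, had a median of 59.4 over active genes. *Coro2a* lay at the 87.9 percentile of the active genes in pausing index and *Ncor1* at the 4.48 percentile. *Hdac3* and *Gps2* were near the middle, at the 58.0 and 59.3 percentiles, and *Tbl1x* and *Tbl1xr1* were low, at the 22.2 and 21.6 percentiles.

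**Figure D1:**
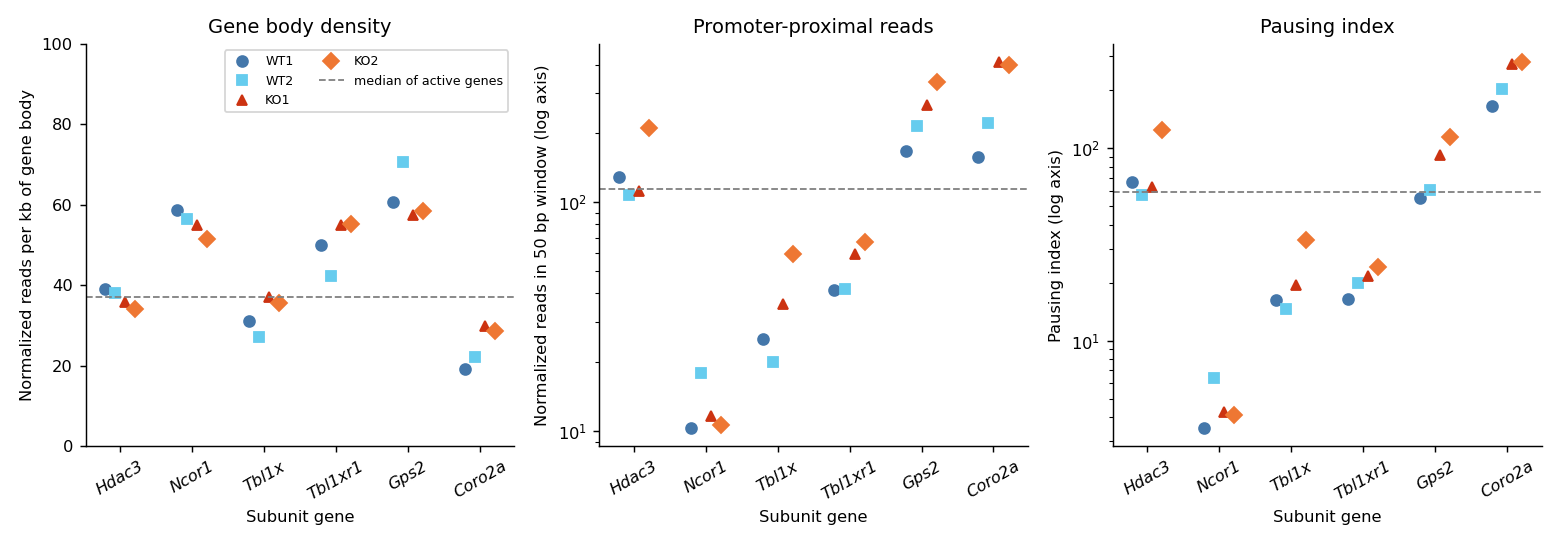
Levels of the 6 subunit genes in each of the 4 libraries, with gene body density in normalized reads per kb on a linear axis, and promoter-proximal normalized reads and the pausing index on log axes; points are single libraries and dashed lines are medians of the active genes. *Ncor1* lies far under the median at its promoter-proximal window (10.3 to 18.0 reads) although its gene body density (51.5 to 58.7 per kb) is above the median, and *Coro2a* shows the opposite pattern.

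*Hdac3*, the catalytic subunit and the gene targeted in the KO mice, had gene body values of 665 and 648 normalized reads in the WT libraries and 609 and 582 in the KO libraries (replicates 1 and 2). Both KO libraries were under both WT libraries, by a small margin. The log2 fold change was -0.14 ± 0.13 (SE, n = 2 per genotype; limma on log2 of normalized reads plus 1, Benjamini-Hochberg adjusted p = 0.413), with an interval of 2 SE on each side from -0.40 to 0.12. Relative to the median active gene the change was -0.05. At the promoter the values were 130, 108, 112 and 211 in WT1, WT2, KO1 and KO2. KO2 was high and KO1 lay between the WT libraries, so the genotypes overlapped (log2 fold change 0.38 ± 0.33, adjusted p = 0.370 by limma). Relative to the median active gene this change was -0.18. Without KO2 the log2 fold change itself was -0.07. The gene body value sums reads over the whole 17.0 kb body and does not separate a deleted exon from the rest, so it does not test the deletion. Nuclei of cells outside the reach of *Alb-Cre* are part of the same sum, and in such bulk samples fewer cells of a type cannot be told apart from less RNA made per cell.

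*Ncor1* encodes the scaffold. Its gene body held 7104 and 6829 normalized reads in WT1 and WT2 and 6664 and 6236 in KO1 and KO2. The KO libraries were the lower ones, with a log2 fold change of -0.11 ± 0.11 (SE, n = 2 per genotype; limma adjusted p = 0.437; 2 SE on each side, -0.33 to 0.10). Its promoter-proximal window held few reads, 10.3, 18.0, 11.7 and 10.6 normalized reads in the same order, from 7 to 18 reads before scaling. The genotypes overlapped and the change was -0.27 ± 0.46 (adjusted p = 0.645 by limma), at the 9.52 percentile of the changes of active genes. Relative to the median active gene this change was -0.83. *Ttc19* lies on the opposite strand and shares 12026 bp with the annotated *Ncor1* locus. Its gene body fell by 0.66 on the log2 scale (limma adjusted p = 1.77e-04), and the sources used here do not state whether gene body reads were counted by strand, so its part in the *Ncor1* value was not tested.

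The window of *Ncor1* depends on which start the table used. The gene body length of the *Ncor1* row, 121090 bp, matches 1 of 25 annotated transcripts (GENCODE, GRCm38), and this transcript starts at position 62438515 of chromosome 11. RefSeq places another *Ncor1* start 18817 bp upstream, outside the 500 bp searched around the start of the row. The 2 stretches are shown because they differ so much in base composition, each from 250 bases before to 50 bases after its start (RefSeq, GRCm38.p6, minus strand, 5′ to 3′), with motif matches in capitals.
*Ncor1* start of the table row, chr11:62438466-62438765: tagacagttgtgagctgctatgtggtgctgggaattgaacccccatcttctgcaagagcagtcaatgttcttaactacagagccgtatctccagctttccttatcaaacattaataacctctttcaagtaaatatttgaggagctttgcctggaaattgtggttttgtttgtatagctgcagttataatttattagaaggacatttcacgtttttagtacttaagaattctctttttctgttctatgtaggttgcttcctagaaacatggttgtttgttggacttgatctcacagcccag
*Ncor1* upstream start, chr11:62457283-62457582: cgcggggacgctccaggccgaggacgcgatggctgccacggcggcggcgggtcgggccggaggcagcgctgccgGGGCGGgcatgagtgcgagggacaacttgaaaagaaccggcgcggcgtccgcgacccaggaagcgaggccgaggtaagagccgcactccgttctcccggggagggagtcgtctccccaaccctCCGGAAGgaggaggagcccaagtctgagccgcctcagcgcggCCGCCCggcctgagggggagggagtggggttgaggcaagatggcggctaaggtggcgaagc
The stretch at the row's start had a GC content of 38.3% and 2 CpG dinucleotides. The upstream stretch had 72.3% and 36, against medians of 52.7% and 7 over 32851 promoters of the same length. Its capitals mark 2 GC boxes (GGGCGG, held on either strand by 35.7% of all promoters) and an ETS site (CCGGAAG, 8.86%). The other motifs searched on both strands, with overlaps counted, were the E-box (CACGTG, 7.15% of all promoters), the CCAAT box (CCAAT, 37.4%), the TATA box (TATAAA, 13.6%), the nuclear receptor half-site (AGGTCA, 16.3%), the cAMP response element (TGACGTCA, 1.79%) and the NRF1 site (GCGCATGCG, 1.75%), and none of these letters was in either stretch. A match is a description of the letters and not of binding. The promoter-proximal value and the pausing index of *Ncor1* therefore describe the internal start of the row, and reads at the upstream start were not analysed here.

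*Tbl1x* encodes TBL1 and lies on the X chromosome. Its gene body held 4596 and 4037 normalized reads in WT1 and WT2 and 5495 and 5275 in KO1 and KO2. Both KO libraries were above both WT libraries. The log2 fold change was 0.32 ± 0.11 (SE, n = 2 per genotype; limma adjusted p = 0.0220), which passed the adjusted p but not the threshold of 0.6 on the fold change. The adjusted p was 0.144 without the activity filter and 0.0843 to 0.197 without WT2, KO1 or KO2. At the promoter the values were 25.2 and 20.0 in WT1 and WT2 and 36.1 and 59.2 in KO1 and KO2, again without overlap, and KO2 was well above KO1. This window rose by 1.01 ± 0.40 on the log2 scale (limma adjusted p = 0.0454), 0.45 above the median active gene. The call was lost with DESeq2 (adjusted p = 0.109), with the replicate block (adjusted p = 0.0950 by limma), without the activity filter (adjusted p = 0.271 by limma), with the factors recomputed within the region (log2 fold change 0.46, adjusted p = 0.431), and without WT1, WT2 or KO2 (0.66 to 1.17, adjusted p from 0.185 to 0.371).

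The pools differed in their mix of sexes, which matters for an X-linked gene. The gene body of *Xist*, the RNA of the inactive X chromosome in females, was read 445 and 1135 times after normalization in WT1 and WT2, and 688 and 196 times in KO1 and KO2. The 5 sex-linked genes checked were *Xist*, *Ddx3y*, *Eif2s3y*, *Kdm5d* and *Uty*, and *Xist* alone was called in gene bodies (down). Over the 320 active genes known to lie on the X chromosome, the median gene body change was -0.05 and the median promoter-proximal change 0.58, close to the medians of all active genes. Medians over many genes do not show how a single X-linked gene varies with sex. The part of the sex mix in the *Tbl1x* value was not tested.

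*Tbl1xr1* encodes TBLR1, the relative of TBL1. Its gene body held 6943 and 5890 normalized reads in WT1 and WT2 and 7658 and 7672 in KO1 and KO2. The KO libraries agreed closely and lay above both WT libraries, which were further apart. The log2 fold change was 0.26 ± 0.11 (SE, n = 2 per genotype; limma adjusted p = 0.0677; 2 SE on each side, 0.04 to 0.48). At the promoter it had 41.3, 42.0, 59.4 and 66.8 in WT1, WT2, KO1 and KO2, without overlap (log2 fold change 0.59 ± 0.38, adjusted p = 0.214 by limma). That is 0.03 above the median active gene. The start of its row, at position 22076652 of chromosome 3, is the RefSeq start.

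*Gps2* encodes the G protein pathway suppressor that binds NCoR and TBL1. Its gene body is short, 1.40 kb, and held 84.9, 99.0, 80.6 and 82.0 normalized reads in WT1, WT2, KO1 and KO2. The KO libraries were just under WT1, with a log2 fold change of -0.17 ± 0.23 (SE, n = 2 per genotype; limma adjusted p = 0.581) and the widest interval of the 6 gene bodies, -0.62 to 0.28 (2 SE on each side). Its promoter held 168 and 215 normalized reads for the WT libraries and 265 and 334 in KO1 and KO2. Both KO libraries were higher. The change was 0.65 ± 0.31 (adjusted p = 0.0996 by limma), 0.09 above the median active gene. Its pausing indices were 55.2 and 60.8 in WT1 and WT2 and 92.1 and 114 in KO1 and KO2. This change of 0.82 ± 0.40 on the log2 scale did not pass (limma adjusted p = 0.123). It was 0.21 above the median pausing index change of the active genes, which was 0.61.

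*Coro2a* was higher in KO in both regions. Its gene body held 1222 and 1411 normalized reads in WT1 and WT2 and 1910 and 1825 in KO1 and KO2. The KO libraries were close to each other and above both WT libraries. The log2 fold change of 0.51 ± 0.12 (SE, n = 2 per genotype; limma adjusted p = 0.00114) passed the adjusted p and was under the fold threshold of 0.6. Without WT2 it was 0.61 (adjusted p = 1.24e-04 by limma), where the remaining WT library was assumed to vary like the KO pair. Without the activity filter the adjusted p was 0.0911. Its promoter held 157 and 223 normalized reads for the WT libraries and 409 and 398 in KO1 and KO2, and rose by 1.10 ± 0.31 on the log2 scale (limma adjusted p = 0.00416), 0.54 above the median active gene. The promoter-proximal call was lost with the factors recomputed within the region (median-of-ratios log2 fold change 0.53, adjusted p = 0.146), without the activity filter (adjusted p = 0.156 by limma) and without WT1, WT2 or KO2 (0.85 to 1.35, adjusted p from 0.0644 to 0.222), with every value above 0.

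The promoters of *Coro2a* and *Tbl1x* are shown because these were the subunits called at their promoter-proximal windows (RefSeq, GRCm38.p6, 5′ to 3′, from 250 bases before to 50 bases after the start, GC boxes in capitals).
*Coro2a* upstream start, minus strand, chr4:46601880-46602179: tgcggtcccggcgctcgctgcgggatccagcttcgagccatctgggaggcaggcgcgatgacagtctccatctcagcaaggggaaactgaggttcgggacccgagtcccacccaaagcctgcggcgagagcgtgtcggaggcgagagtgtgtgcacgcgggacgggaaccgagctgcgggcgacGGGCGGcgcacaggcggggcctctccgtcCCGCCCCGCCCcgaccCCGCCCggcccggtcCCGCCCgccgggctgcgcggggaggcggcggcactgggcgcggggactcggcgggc
*Tbl1x* start, plus strand, chrX:77510977-77511276: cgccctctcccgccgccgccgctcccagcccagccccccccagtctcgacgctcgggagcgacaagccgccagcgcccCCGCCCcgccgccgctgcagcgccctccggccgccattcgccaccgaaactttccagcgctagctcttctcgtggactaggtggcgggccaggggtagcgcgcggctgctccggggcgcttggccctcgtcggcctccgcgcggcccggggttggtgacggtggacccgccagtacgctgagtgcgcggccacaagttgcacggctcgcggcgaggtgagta
The *Coro2a* start is the start of its table row and lies 35489 bp upstream of another RefSeq start of the gene. The *Tbl1x* row could not be matched to an annotated transcript by its length, so its window may lie elsewhere. Both stretches held 43 CpG dinucleotides, with GC contents of 76.0% and 75.3%. *Coro2a* held 5 GC boxes and *Tbl1x* held 1, counted on both strands, and neither held another of the motifs searched. RefSeq promoters were examined for 5 of the 6 subunits. That of *Hdac3* was left out, which does not mean that RefSeq lacks one.

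Over the 6 subunits, 0 gene bodies were called in either direction by limma (adjusted p below 0.05 with a log2 fold change beyond 0.6 in size), where 10.4% of the active genes were called up and 11.4% down. At an unadjusted p under 0.05, 3 of the 6 gene bodies passed, against 46.7% of active genes. edgeR and DESeq2 also called 0, against 21.9% and 20.5% of active genes in either direction. With the adjusted p alone, 2 of 6 were higher in KO and 0 lower, against 17% and 22.1% of active genes. This count moved with the setting, since *Tbl1x* and *Coro2a* did not pass in the settings named for them, and *Tbl1xr1* passed under median-of-ratios, TMM, the replicate block and without WT1 (adjusted p from 0.0223 to 0.0329 by limma). At the promoter, 2 of 6 were called up and 0 down, against 25.8% and 2.2%, and 3 of 6 had an unadjusted p under 0.05, against 43.4%. No pausing index was called, against 12.4% up and 0.519% down, with 1 of the 6 at an unadjusted p under 0.05, against 35.3%, and 0 called by edgeR, against 14.9% in either direction. Both KO libraries were above both WT libraries for 3 gene bodies and 4 promoters, against 27.6% and 61.9% of active genes, and below them for 3 gene bodies and 0 promoters, against 42.8% and 6.72%. With 2 against 2 libraries, an exact permutation test of a single gene cannot go below a two-sided p of 0.33, so the p-values come from limma, which shares the spread over all active genes.

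**Figure D2:**
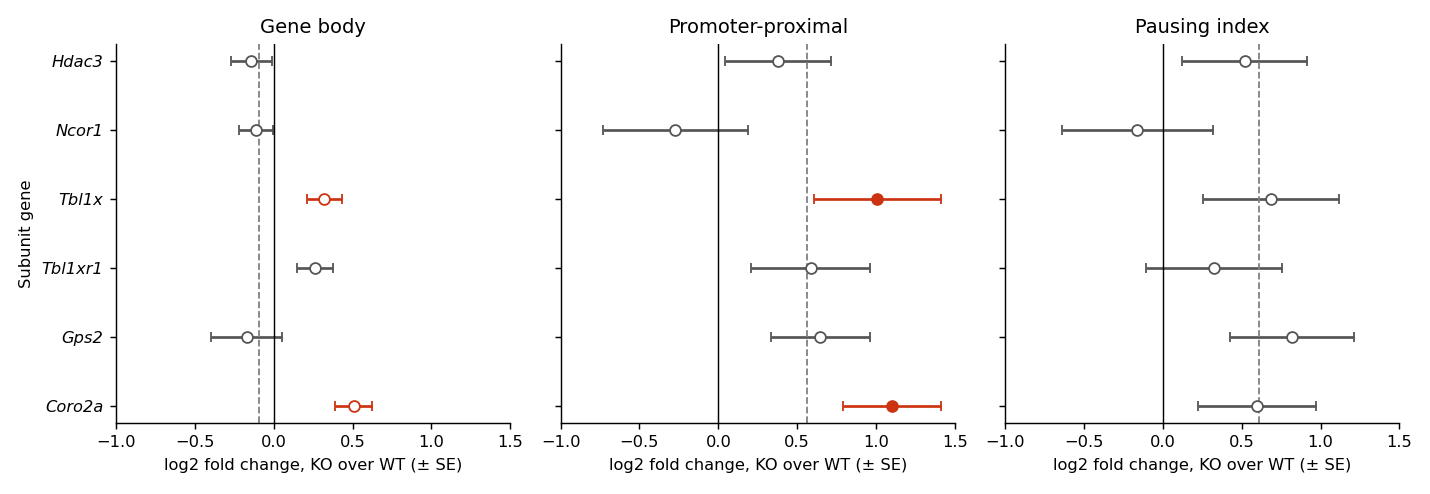
Log2 fold changes of KO over WT with their SE from limma for the gene body, promoter-proximal and pausing index values of the 6 subunits (n = 2 libraries per genotype); red marks an adjusted p under 0.05, and filled points are also past 0.6, and dashed lines are the medians of active genes. *Tbl1x* and *Coro2a* are the points to the right of the dashed line in red in the gene body and promoter-proximal panels, and the 6 pausing index changes run from -0.16 for *Ncor1* to 0.82 for *Gps2*.

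The ratio of gene body densities of any pair of subunits within a library does not depend on the scaling factor of that library. *Hdac3* to *Ncor1*, the enzyme to its scaffold, was the steadiest of the pairs, at 0.666, 0.675, 0.650 and 0.664 in WT1, WT2, KO1 and KO2, a range of 3.85%. The *Hdac3* gene body held 383 to 648 reads per library before scaling, and this range was not set against counting error. *Tbl1xr1* to *Tbl1x* was the next steadiest at 1.609, 1.555, 1.485 and 1.550. *Ncor1* to *Tbl1x* went from 1.89 and 2.07 in WT to 1.48 and 1.45 in KO. *Coro2a* to *Hdac3* had the widest range of the pairs, at 0.488 and 0.579 in WT and 0.834 and 0.835 in KO. The genotypes did not overlap in most of the 15 pairs, including every pair named here and so the steadiest ones. The pairs share their genes, so they are not separate observations. Among the gene bodies of single active genes, both KO libraries lay above both WT libraries in 27.6% and below them in 42.8%. A lack of overlap was therefore common in these libraries and does not set the subunit pairs apart. The named pairs were picked after all 15 were seen and are given as a description, with no test. Pairs of other genes were not compared.

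**Figure D3:**
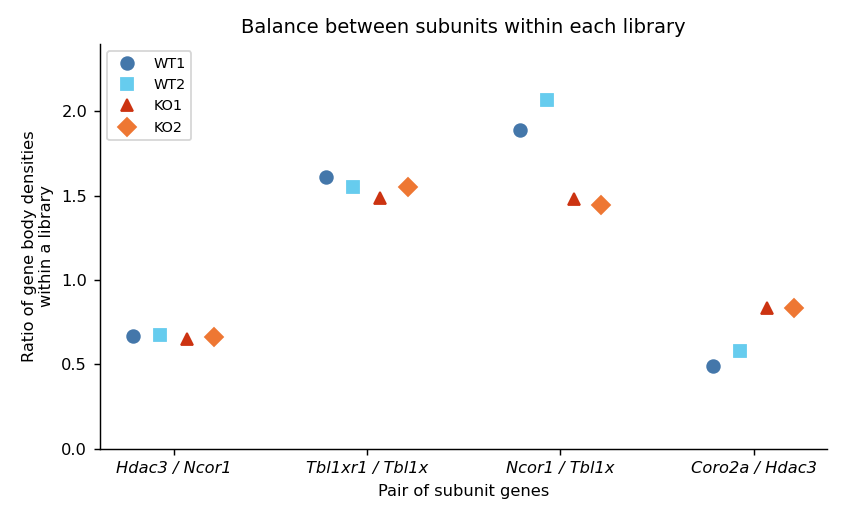
Ratios of gene body densities between 4 pairs of subunit genes, each point a library, on a linear axis from 0. *Hdac3* to *Ncor1* stays between 0.650 and 0.675 in all libraries, while *Coro2a* to *Hdac3* is 0.488 and 0.579 in the WT libraries and 0.834 and 0.835 in the KO libraries.

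Markers of liver cell types moved between the genotypes. For comparison, 10.4% of the gene bodies of all active genes were called up and 11.4% down. The libraries held the hepatocyte transcription that the tissue label names, for example at *Alb* (67673 and 75584 normalized gene body reads in WT1 and WT2), and no listed marker in the table was at 0 in all libraries. Summed gene body reads of 7 hepatocyte markers were 303359 to 304049 in WT and 138803 to 144002 in KO, and 5 of 7 were called down. The 7 markers of hepatic stellate cells and fibroblasts were all called up, with sums of 9513 to 10800 in WT and 19206 to 20930 in KO. Of 7 liver endothelial markers 5 were called up (53863 to 58409 against 89718 to 100179), of 6 Kupffer cell markers none was called (13549 to 14051 against 14787 to 17306), and all 4 measured erythroid markers were called down (762 to 950 against 296 to 338). Of 6 lymphocyte markers 2 were up and 2 down (624 to 735 against 695 to 757), and of 3 active cholangiocyte markers 1 was down (sums over the 5 listed of 158 to 208 against 152 to 182). The part of these shifts in the rise of *Coro2a* and *Tbl1x* and in the *Hdac3* value was not tested.

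The promoter-proximal direction turned with the scaling for *Hdac3* alone. With factors recomputed within the region, by median-of-ratios or by TMM, the change of *Hdac3* was -0.19 in both, that of *Ncor1*, negative before, was -0.80, and *Tbl1xr1* and *Gps2* stayed above 0 by no more than 0.08. *Coro2a* was above 0 and above the median active gene in all 18 settings computed for this value and was called in 12 of them. *Tbl1x* was above 0 and above the median in all 18 and was called in 10. In gene bodies, *Tbl1x*, *Tbl1xr1* and *Coro2a* were above the median active gene and *Hdac3* below it in all 18 settings. The settings share the same reads and are not separate checks. Several leave the fold change as it was. The setting without a fold threshold repeats the main fit, so a main call is counted again there. Where both KO libraries were above both WT libraries, leaving out a library could not turn the sign.

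**Figure D4:**
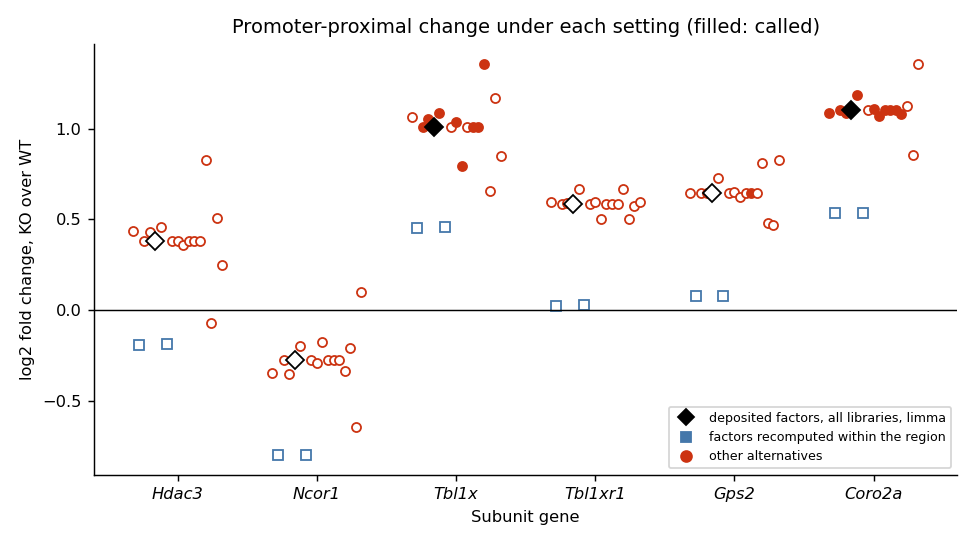
Promoter-proximal log2 fold change of KO over WT for each subunit under each setting, apart from the setting without a fold threshold, which repeats the main values. Filled points are called (adjusted p below 0.05, log2 fold change beyond 0.6 in size). With factors recomputed within the region (blue squares), *Coro2a* and *Tbl1x* remain above 0 at 0.53 and 0.46 (median-of-ratios) without a call, and *Hdac3* lies at -0.19.

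Among the related genes, the class IIa deacetylases, which need the NCoR-HDAC3 complex for most of their activity, had 2 of 4 gene bodies called up and no promoter called, with median log2 fold changes of 0.43 and 0.29. *Hdac7* had 2621 and 3324 normalized gene body reads in WT and 5531 and 5238 in KO (log2 fold change 0.87). *Hdac9* had 2107 and 1852 against 3328 and 2733 (0.61). The promoter windows held few normalized reads, 0 to 2.12 for *Hdac7*, 8.03 to 18 for *Hdac9* and 6.07 to 10.3 for *Hdac4*. *Hdac5* had 136 to 261. The lack of promoter calls in this list therefore says little. Among all active genes, 10.4% of gene bodies and 25.8% of promoters were called up.

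Of 21 nuclear receptors and other factors that recruit NCoR, 20 were active. Their gene bodies were called up in 4 and down in 4, with a median log2 fold change of -0.15. Promoters were called up in 7 and down in 1, with a median of 0.47. The shares over all active genes were 10.4% and 11.4% for gene bodies, and 25.8% and 2.2% for promoters. *Rarg*, a retinoic acid receptor, had 1327 and 1495 normalized gene body reads in WT and 3721 and 3866 in KO (log2 fold change 1.43). *Hnf4a*, the hepatocyte receptor that directs liver gene expression, had 17104 and 17557 in WT and 5615 and 6374 in KO (-1.53). *Nr2f2*, an orphan receptor also abundant in endothelial cells, rose by 0.69 in its gene body and 1.87 at its promoter. The promoter of *Rarb* rose by 1.46 on the log2 scale, and its gene body change of 0.59 was just under the fold threshold.

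The 24 genes of other class I deacetylase complexes in the table had 1 gene body and 4 promoters called up and none down. *Trerf1*, a zinc finger relative of the MiDAC subunit gene *Mideas*, was the gene with the body call, at a log2 fold change of 1.03 and 1.91 at its promoter. *Dnttip1*, *Sap130* and *Sap30*, of the MiDAC and Sin3 complexes, had promoter changes of 0.83, 0.77 and 0.72 with no gene body call. The 8 genes of the TRiC chaperonin, which folds HDAC3, had no gene body call and 3 promoters called up (*Cct5* 1.16, *Cct3* 0.92 and *Cct4* 0.82 on the log2 scale). The 7 listed genes of HDAC3 kinase, HDAC3 phosphatase and inositol phosphate enzymes had no gene body call. Of their promoters, 2 were called up (*Csnk2a2* 1.15 and *Ppp4r1* 0.77). Beside these counts, 10.4% of gene bodies and 25.8% of promoters of all active genes were called up. The promoters named in this paragraph lay from 0.16 (*Sap30*) to 1.35 (*Trerf1*) above the median active gene. The medians of these 3 lists were -0.03, -0.14 and -0.10 in gene bodies, beside -0.09 over all active genes, and 0.58, 0.57 and 0.50 at the promoter, beside 0.56.

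For each subunit, the active genes most alike over 8 values (4 libraries in both regions, log2 scale, each region centred on its own mean) were sought. They were *E2f5* and *Hnrnpa2b1* for *Hdac3* (root mean square differences 0.042 and 0.047), *E330033B04Rik* and *Msh4* for *Ncor1* (0.047 and 0.095), *6330409N04Rik* and *Aida* for *Tbl1x* (0.058 and 0.060), *Arpp19* and *2310061J03Rik* for *Tbl1xr1* (0.056 and 0.062), *Sugp2* and *Spcs2* for *Gps2* (0.022 and 0.046), and *Lpcat1* and *Vangl2* for *Coro2a* (0.063 and 0.063). No subunit was among the genes most alike to another subunit. With 2 of 12705 active genes kept for each, this was likely in advance and says nothing about shared regulation.

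Of the 2282 enhancers listed from the pooled reads of the 4 libraries, none lay within 50 kb of the TSS of a subunit gene. The authors listed intergenic enhancers only and left out transcripts in or near RefSeq genes. Elements inside the long subunit genes could therefore not appear. The share of active genes with an enhancer within 50 kb was not computed. *Tbl1xr1* was the closest gene of 3 of them, at 88.0, 113 and 143 kb, on chromosome 3 from 21985347 to 21988606, from 21961667 to 21963329 and from 21931400 to 21933274 (mm10). Being the closest gene of 3 or more enhancers held for 1.60% of active genes, and of at least 1 for 10.9%. By the chromatin contacts of the 4DGenome collection, 5 enhancers each were linked to *Tbl1xr1* and *Coro2a*, 4 to *Ncor1*, 2 to *Hdac3* and none to *Tbl1x* or *Gps2*. Of these 16 links 10 were on the same chromosome as the gene, and a link was listed for 75.8% of active genes (median 2). The contacts were measured in other cell types, so none was measured in these livers.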

How the data were processed

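The data were 4 PRO-seq libraries of day 14 mouse liver, 2 WT and 2 *Hdac3* KO, grouped by their labels, each from a separate sample of pooled nuclei. The authors trimmed the reads with cutadapt, aligned them to mm10 with Bowtie2, removed reads on ribosomal RNA or of low mapping quality and counted them per RefSeq transcript with NRSA, their nascent RNA tool. The deposited values were read counts for WT2 (factor 1) and, for WT1, KO1 and KO2, normalized signal, the counts multiplied by 1.15, 1.06 and 1.52. The authors also deposited densities, as signal per bp. Undoing the factors gave whole reads for 100% of values (tolerance 0.01). Since the table was mostly normalized, the count tests were alternatives and limma was the main test. The authors' enhancer list, deposited with positions in bp, came from pooled reads.

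For each of 20642 symbols the row with the highest promoter-proximal mean represented the gene, out of 20820 rows. Every subunit had 1 row. log2(normalized reads + 1) was fitted on genotype over 12705 active genes with limma 3.58.1 (trend, empirical Bayes) under R 4.3.3, and p was adjusted by Benjamini-Hochberg over all of them. The pausing index, the ratio of both densities, was compared on the log2 scale. A fold change on this scale understates changes of low values. P-values measure the spread between pools. Nothing says how pools of the same number relate. Alternatives used edgeR 4.0.16, DESeq2 1.42.0, the Cochran-Mantel-Haenszel test, other pseudocounts (0.1, 10), filters, scalings, transcripts, a replicate block and leaving out each library. A crossed block was added after the data were seen. The procedure was tested on simulated data.

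Named genes were the 6 members, up to 4 called genes with the largest change from each of the pathway lists, the 2 active genes most alike to each member, overlapping genes and linked enhancers. A listed gene is not reported here, nor is the list that held it. The members and lists were chosen with earlier results of these data known. Protein sequences were not used here. Scripts used Python 3.11.15, numpy 2.4.6, pandas 2.3.3 and matplotlib 3.10.9.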

Additional observations from a re-analysis of the deposited data

How the results depend on the processing

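In all, 18 alternatives gave 306 values for the 6 subunits. Of these, 272 kept their direction and the same call (adjusted p and fold threshold together), 14 lost a call, 9 gained a call and 11 changed sign. Several alternatives change only the filter, the block or the threshold and leave the fold change as it was, so the values are not separate checks. For gene bodies, 0 members were called in the main setting. Leaving out each library gave 0 to 1 (*Coro2a* at 0.61 without WT2), and dropping the fold threshold gave 2. For promoter-proximal regions 2 were called. With no activity filter, median-of-ratios within the region or TMM within the region 0 were called, with DESeq2 1, and on leaving out each library 0 to 2 (0 without WT1, WT2 or KO2). For the pausing index 0 were called. The Cochran-Mantel-Haenszel test, which covers counting error only, gave 2 (*Tbl1x* and *Gps2*), and leaving out each library gave 0 to 2 (*Hdac3* and *Gps2* without KO1). Where a library was left out, the lone library of its genotype was assumed to vary like the other pair. The cause of these losses and gains was not tested.

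The promoter-proximal change turned to -0.19 for *Hdac3* under median-of-ratios and TMM and to between -0.073 and 0.83 on leaving out each library (-0.073 without KO2), and for *Ncor1* ranged from -0.65 to 0.10 (0.10 without WT2). The pausing index change turned to -0.13 for *Hdac3*, -0.32 for *Tbl1xr1* and -0.054 and -0.053 for *Coro2a* under these scalings, and for *Ncor1* ranged from -0.56 to 0.24 (0.24 without WT2). Only 2 of the 6 positions in the gene body order stayed the same in KO1 and in KO2 on their own.

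Deviations of same-numbered libraries from their genotype means correlated at 0.02 for gene bodies and -0.11 for promoter-proximal regions, so the numbers were not taken as pairs. With the replicate block, 1 member (*Coro2a*) was called at the promoter and 0 in gene bodies and pausing index. With crossed numbers the counts were 3 at the promoter, 0 in gene bodies and 1 in pausing index. Over all active genes, promoter-proximal calls went from 3282 up and 280 down to 1772 and 177 with the block, 4861 and 399 with crossed numbers, 635 and 949 with TMM and 634 and 942 with median-of-ratios. They were 0 without the filter, and 319 to 3522 up on leaving out a library. Gene body calls went from 1324 up and 1449 down to 406 and 589 without the filter. Pausing index calls went from 1574 up and 66 down to 186 and 12 with the block, 4109 and 117 with crossed numbers, 8 and 13 with TMM, 6 and 11 with median-of-ratios, 0 without the filter, 5850 and 84 with the Cochran-Mantel-Haenszel test, and 29 to 5258 up on leaving out a library.

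The *Ncor1* window rests on 7 to 18 reads per library and the *Gps2* gene body on 54 to 99, which limits both.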
